A study of Mus musculus with 24 samples.

Results

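The genes described here are 10 members of the interleukin-1 (IL-1) family and of the inflammasome, chosen by gene symbol from the 18647 genes of the deposited count table. They were the ligands Il1a, Il1b, Il18 and Il33, the receptor antagonist Il1rn, the receptor Il1r1 with its accessory chain Il1rap, and the inflammasome genes Nlrp3, Pycard and Casp1. All 10 were in the table and all 10 passed the filter on low counts, as did 18153 genes in all. RNA sequencing (RNA-seq) of poly(A) RNA was performed on microdissected hippocampal CA1 from adult C57Bl/6N mice (at least 60 days old, at least 20 g). SE mice had received 1 mg/kg scopolamine methyl nitrate, 20 min later 335 mg/kg pilocarpine hydrochloride, which induces status epilepticus (SE), and diazepam at 4 mg/kg 40 min after SE onset. Non-SE controls (Ctr) received the same agents with saline in place of pilocarpine, and only pilocarpine-injected mice that developed SE entered the study. CA1 was taken from SE mice 6, 12, 24, 36 or 72 h after SE and from controls at 12, 36 or 72 h, with 3 libraries per group, 24 in all. The labels do not say that the libraries of a group are separate animals, so that p-values measure the spread between these libraries.

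IL-1α and IL-1β, encoded by Il1a and Il1b, bind the receptor encoded by Il1r1, which then recruits the accessory protein encoded by Il1rap and signals through MyD88 and IRAK kinases to NF-κB. The product of Il1rn occupies the same receptor without signalling. IL-1β and IL-18 are made as precursors that caspase-1 cleaves once the sensor NLRP3 and the adaptor ASC, encoded by Pycard, have assembled an inflammasome. IL-33 is a nuclear protein released from damaged cells. In brain, microglia are the best known source of IL-1β and of inflammasome components, whereas IL-33 is known from astrocytes and oligodendrocytes. RNA levels, which were measured here, do not show whether the precursors were cleaved.

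After SE, Il1rn, Il1b, Il1r1, Il33, Nlrp3 and Pycard were called higher than in controls at all 5 time points, and Il18 was the only member called lower. The calls of Il1b at 12, 36 and 72 h and of Pycard at 6 h were lost with any of several single libraries left out. The share of all genes called up at all 5 times is not given here. A member was called when its adjusted p (edgeR quasi-likelihood test, Benjamini-Hochberg over all genes tested) was at most 0.05 and its absolute log2 fold change (Log2FC) at least 0.66. At 6 h, 7 of 10 members were called up and 0 down, where 15.8% of all genes tested were called up and 6.21% down. At 12 h, 6 were called up and 1 down (background 13.9% up, 11.4% down). At 24 h, 8 were up and 1 down (background 14.9% and 9.21%). The counts at 36 h were 7 up and 1 down (background 12.7% and 8.91%), and at 72 h 9 up and 0 down (background 15.2% and 4.20%). These counts include Il1rn, Il1a and Il1b, whose low control levels left almost no room for a call down. The median Log2FC of the 10 members was 1.71, 1.60, 2.01, 1.51 and 2.76 from 6 to 72 h, against 0.057, 0.0071, 0.039, 0.0033 and 0.097 over all genes tested. With Il1rn set to the lower bound that its control counts of 0 allow, the median at 72 h was 2.70 and the other 4 medians did not move. The comparisons at 6 h and 24 h had no control of their own time and used the mean of the same 3 control groups, while the other 3 used the control of the same time.

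**Figure D1:**
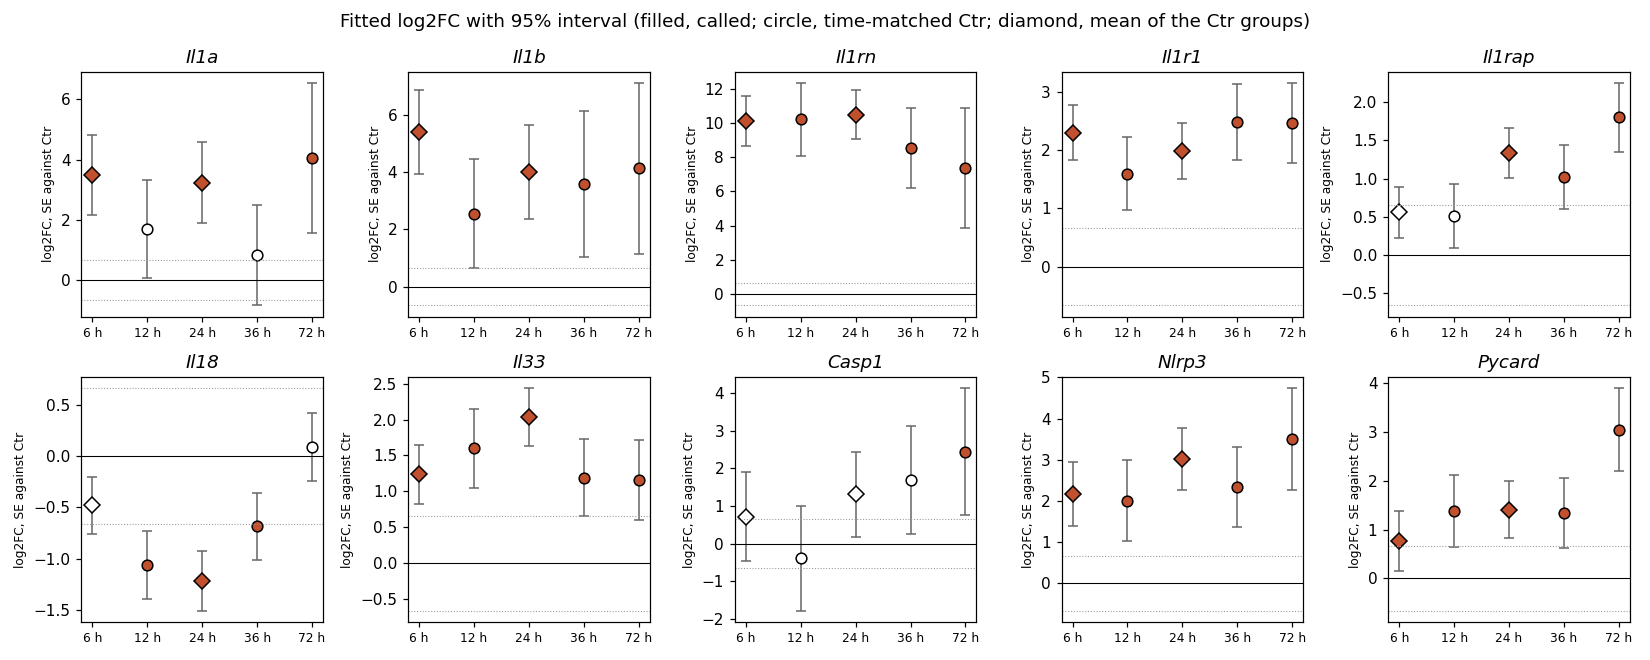
Fitted Log2FC of each gene against control (vertical axis, log2 scale) by time after SE (horizontal axis), with 95% intervals; filled symbols passed both thresholds, circles used the time-matched control group, diamonds the mean of the 3 control groups, and dotted lines mark 0.66 in either direction. Il18 lies below 0 from 6 to 36 h and at 0.09 at 72 h. The plotted values of Il1rn have no defined size, since its control libraries held 0 counts.

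Some libraries stood apart. Total counts ranged from 2663936 to 30133731 and were lowest in Ctr 72 h (2663936 to 11680209). Of 5 sensory ganglion markers (Prph, Avil, Scn10a, Pou4f1 and Calca), which CA1 should lack, the summed level exceeded 100 CPM (counts per 1000000 TMM-scaled counts of the library) in 6 libraries: SE 6 h replicate 3 (238 CPM), SE 12 h replicate 1 (464), SE 36 h replicate 3 (622), SE 72 h replicates 1 and 2 (714 and 374) and Ctr 72 h replicate 2 (1283). The other 18 libraries ranged from 3.31 to 50.6 CPM. Without those 6 libraries, an alternative added after the data had been seen, 5, 6, 9 and 7 members were called at 6, 12, 24 and 36 h. Over all genes tested in that fit, 3593, 5102, 4481 and 3897 were called at these times. SE 72 h then rests on 1 library, which is assumed to vary like the other groups, so that no count is given for it. The numbers in the library labels fall into 3 ranges, 92 to 104, 109 to 122 and 162 to 169, whose meaning is not given in the sources used here and which partly follow the groups. All of Ctr 72 h lay in the last range and no SE 72 h library did, and all of SE 24 h lay in the first, which held no control, so that no difference within a range can be had at 24 h or 72 h. Within 109 to 122 (2 SE and 3 Ctr libraries) all 10 members had the direction of the fit at 36 h, and within 162 to 169 (1 and 1) 9 of 10 did at 12 h, Casp1 being the exception (0.65 on the log2 CPM scale against a fitted -0.39). By GENCODE M39 (GRCm39), whose positions are given below, 6 members (Il1a, Il1b, Il1rap, Il33, Casp1 and Pycard) share exon bases with a gene on the opposite strand. The library kit keeps no strand, so that reads of such a pair cannot be told apart. None of these opposite-strand genes was in the count table. CA1 pyramidal cell markers (Wfs1, Fibcd1, Pou3f1) were present in all 24 libraries, with summed levels from 175 to 817 CPM. The sum differed between control groups, at 387 to 630 CPM in Ctr 12 h, 744 to 817 in Ctr 36 h and 242 to 477 in Ctr 72 h. It was 175 to 364 CPM in SE 72 h. Fibcd1 was called down at 24, 36 and 72 h and Pou3f1 at 36 h alone, while Wfs1 was called at no time.

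The promoters of 5 members are shown because Il1a, Il1b, Il1rn and Nlrp3 were higher after SE and Il18 was lower, so that their start regions can be set side by side. Each is the RefSeq window from 250 bases before to 50 bases after an annotated start (GRCm38.p6), read on the gene's strand. Capitals mark matches, on either strand, to AP-1 (TGANTCA), PU.1 (GAGGAA), the TATA box (TATAAA) and the kappa-B consensus, and overlapping matches run together.
Il1a (chr2:129309923-129310222, minus strand): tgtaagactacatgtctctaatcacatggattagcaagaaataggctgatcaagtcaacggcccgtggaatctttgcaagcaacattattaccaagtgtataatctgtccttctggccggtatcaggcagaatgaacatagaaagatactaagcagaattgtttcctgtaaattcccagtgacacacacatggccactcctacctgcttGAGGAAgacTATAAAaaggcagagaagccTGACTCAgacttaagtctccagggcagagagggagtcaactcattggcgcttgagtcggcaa
Il1b (chr2:129371090-129371389, minus strand): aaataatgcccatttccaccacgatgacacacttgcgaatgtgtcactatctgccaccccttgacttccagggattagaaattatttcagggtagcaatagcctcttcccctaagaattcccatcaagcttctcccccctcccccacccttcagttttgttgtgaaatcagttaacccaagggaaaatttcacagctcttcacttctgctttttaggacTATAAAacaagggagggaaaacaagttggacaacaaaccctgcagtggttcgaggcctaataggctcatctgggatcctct
Il1rn (most downstream of 3 starts, chr2:24345121-24345420, plus strand): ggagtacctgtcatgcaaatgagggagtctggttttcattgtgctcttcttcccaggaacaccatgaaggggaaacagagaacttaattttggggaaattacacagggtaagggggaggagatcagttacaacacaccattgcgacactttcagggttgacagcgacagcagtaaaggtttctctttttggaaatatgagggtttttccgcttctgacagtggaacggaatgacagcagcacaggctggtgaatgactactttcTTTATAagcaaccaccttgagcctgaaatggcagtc
Nlrp3 (downstream of 2 starts, chr11:59542436-59542735, plus strand): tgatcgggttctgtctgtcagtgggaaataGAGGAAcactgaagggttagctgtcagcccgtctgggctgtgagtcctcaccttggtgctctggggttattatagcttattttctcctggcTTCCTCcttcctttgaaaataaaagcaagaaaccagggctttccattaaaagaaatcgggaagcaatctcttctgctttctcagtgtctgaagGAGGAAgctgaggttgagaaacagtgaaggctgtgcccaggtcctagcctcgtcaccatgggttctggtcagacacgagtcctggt
Il18 (chr9:50554450-50554749, plus strand): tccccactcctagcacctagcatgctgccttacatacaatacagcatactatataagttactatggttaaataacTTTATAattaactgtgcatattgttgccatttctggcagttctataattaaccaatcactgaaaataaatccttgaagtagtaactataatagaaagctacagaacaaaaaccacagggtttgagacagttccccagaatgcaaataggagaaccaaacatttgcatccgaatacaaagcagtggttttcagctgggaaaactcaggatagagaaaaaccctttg
TATAAA began at position -32 from the start in Il1a and at -31 in Il1b, and stood on the other strand in Il18 at -175 and in Il1rn at 14. The Nlrp3 window held GAGGAA 3 times, beginning at -220, -129 and -36. All 10 members matched the RefSeq table with 15 windows, of which AP-1 letters were found in 2, kappa-B in 2, GAGGAA in 5 and TATAAA in 6. Of all 32851 windows of 300 bases, 7.81% held AP-1 letters, 8.46% kappa-B, 28.3% GAGGAA and 13.6% TATAAA. Il1a was the only printed window with TGANTCA. The other match to it lay in the window of the most upstream Il1rn start, beginning at -141, which is not printed. The kappa-B letters lay in the other start window of Nlrp3 and in a window of Il1r1, neither printed. A match is a string of letters and was not tested as a binding site.

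Il1b, on chromosome 2 (129206490-129213059, minus strand, GRCm39), encodes the ligand most closely tied to the inflammasome. It was at or near the limit of detection in controls, where the 9 libraries together held 7 counts (lowest 0, median 0.0387 and highest 0.207 CPM). After SE it was at 1.04, 0.882 and 4.46 CPM in replicates 1, 2 and 3 at 6 h, at 0.547, 0.597 and 0.797 at 12 h and at 1.38, 0.566 and 0.560 at 24 h. At 36 h the levels were 0, 0.552 and 0.513 CPM and at 72 h 0.651, 0.572 and 0.682. Apart from SE 36 h replicate 1, which held no count, every SE library lay above every control library. Il1b was called up at all 5 times (Log2FC 5.41 ± 0.70 s.e., adjusted p = 7.04e-06 at 6 h; 4.01 ± 0.79, adjusted p = 0.000445 at 24 h). Since the controls held so few counts, ratios of summed CPM with their counting intervals describe the size better: 45.7 at 6 h (95% interval 21.5 to 116), 6.32 at 12 h (2.49 to 20.5), 12.1 at 24 h (5.29 to 32.4), 16.6 at 36 h (2.57 to 694) and 13.2 at 72 h (2.20 to 538). These intervals cover counting error only. The calls at 12, 36 and 72 h (adjusted p = 0.0323, 0.0309 and 0.0360) were each lost with 4 or 5 of the 6 compared libraries left out singly: Ctr 12 h replicates 1 and 3 and SE 12 h replicates 2 and 3 (adjusted p up to 0.147), Ctr 36 h replicates 1 and 3 and SE 36 h replicates 2 and 3 (up to 0.0991), and Ctr 72 h replicates 1 and 3 and all of SE 72 h (up to 0.216). They were also lost without the 6 libraries with ganglion markers (adjusted p just above 0.05 at 12 h, and 0.110 and 0.104 at the later times), whereas at 6 h the call held without SE 6 h replicate 3 (Log2FC 4.18, adjusted p = 0.000608).

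Il1a lies next to Il1b on chromosome 2 (129140291-129152098, minus strand) and encodes the ligand that is active without cleavage. Its control level was 0 to 0.678 CPM, with a median of 0.253 over 9 libraries. At 6 h the 3 libraries held 0.559, 1.37 and 5.22 CPM, at 12 h 1.09, 0.961 and 1.04, and at 24 h 2.87, 1.66 and 1.96. Il1a stood at 1.26, 1.02 and 0.171 CPM at 36 h and at 0.769, 1.62 and 2.14 at 72 h. SE 6 h replicate 3 had the highest level of both Il1a (123 counts) and Il1b (105 counts), and SE 36 h replicate 3 was as low in Il1a as controls. Il1a was called up at 6 h (Log2FC 3.49 ± 0.63, adjusted p = 0.000220), 24 h (3.24 ± 0.64, adjusted p = 0.000450) and 72 h (4.05 ± 1.19, adjusted p = 0.0154). It was not called at 12 h (1.70, 95% interval 0.06 to 3.33, adjusted p = 0.0937), although the SE and Ctr libraries did not overlap there, nor at 36 h (0.83, -0.84 to 2.50, adjusted p = 0.468). The 72 h value rests on 3 control counts, all in replicate 1, for a ratio of 10.5 (3.45 to 52.0). Without SE 6 h replicate 3 the 6 h value was 2.23 (adjusted p = 0.0165), and without the 6 libraries with ganglion markers it was 1.62 (adjusted p = 0.0595). The 72 h value was 2.83 without Ctr 72 h replicate 2 (adjusted p = 0.0845) and 3.56 without SE 72 h replicate 3 (adjusted p = 0.0520).

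Il1rn encodes the receptor antagonist. Not a single count fell on it in the 9 control libraries (chromosome 2, 24226865-24241506, plus strand). All 15 SE libraries held at least 10 counts. At 6 h the levels were 6.63, 9.31 and 10.1 CPM, at 12 h 7.90, 7.33 and 13.3, and at 24 h 7.75, 5.05 and 20.7. They were 2.59, 2.68 and 4.05 CPM at 36 h and 1.72, 0.954 and 0.731 at 72 h. No library of the first 3 times was as low as any at 36 h, and none at 36 h was as low as any at 72 h. Against a floor of 3 counts over the control group, Il1rn was at least 349-fold higher at 6 h, 148-fold at 12 h, 403-fold at 24 h, 48.3-fold at 36 h and 7.66-fold at 72 h. The floors differ with control depth, so these bounds do not order the times. Il1rn was called up at each time (adjusted p = 7.05e-08, 3.56e-06, 1.90e-08, 3.79e-05 and 0.00397), a call that limma-voom did not make at 72 h (adjusted p = 0.0980). Between consecutive SE times, the decline did not pass the adjusted threshold (Log2FC -1.84 ± 0.48, adjusted p = 0.0844 from 24 to 36 h; -1.46 ± 0.52, adjusted p = 0.0910 from 36 to 72 h).

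**Figure D2:**
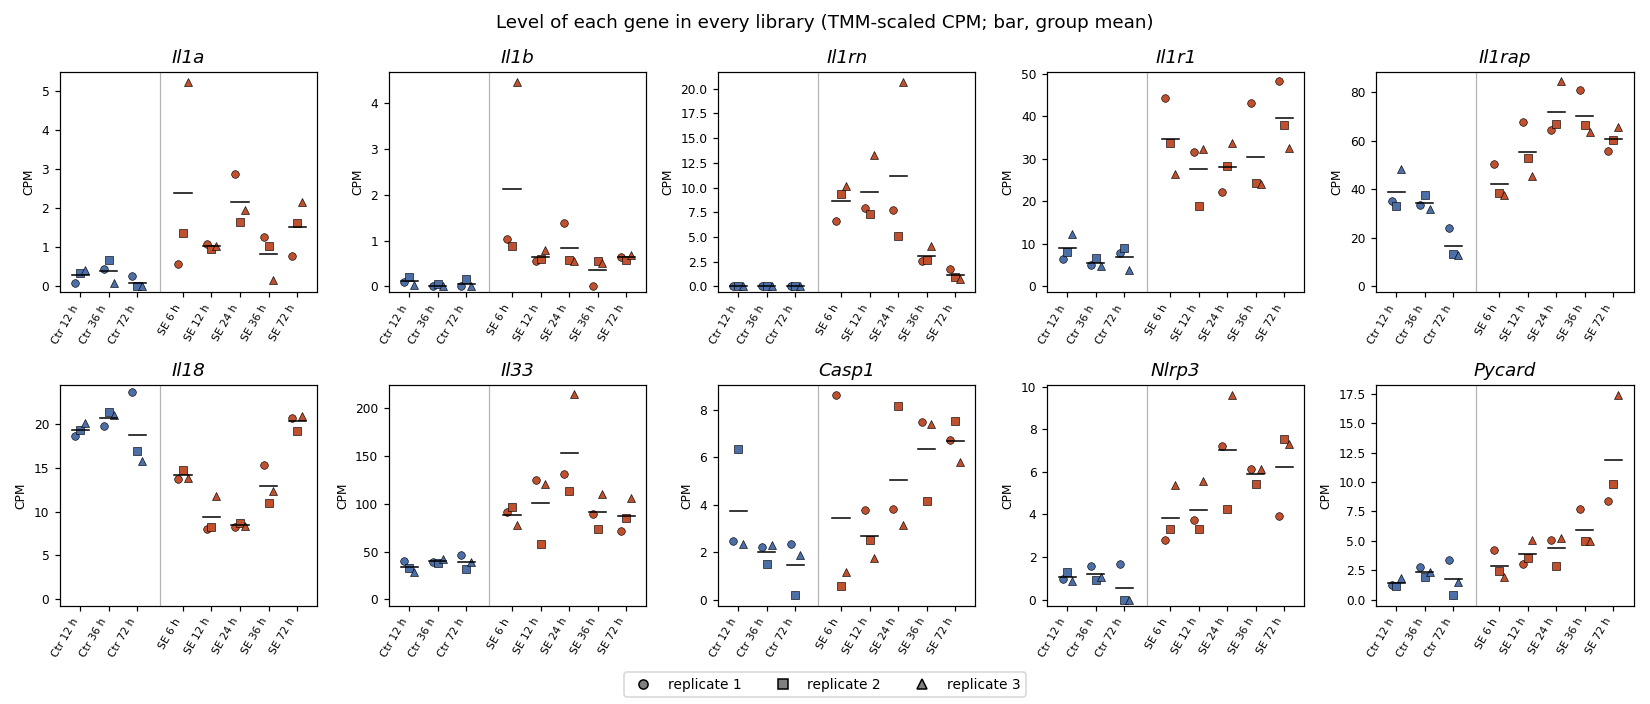
Level of each gene in each library (vertical axis, CPM on a linear scale that starts at 0 and differs between panels) by group (horizontal axis; blue, Ctr; red, SE), with the marker shape giving the replicate and the bar the mean of 3 libraries. Il1rn is at 0 in all 9 control libraries, and Il18 falls to 8.05 to 11.8 CPM at 12 h and is back at 19.2 to 20.9 CPM at 72 h.

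Il1r1, the signalling receptor (chromosome 1, 40264174-40356417, plus strand), was at 3.75 to 12.3 CPM in controls, with a median of 6.58. The SE levels were 44.2, 33.6 and 26.4 CPM at 6 h, 31.6, 18.8 and 32.2 at 12 h, and 22.1, 28.2 and 33.6 at 24 h. At 36 h they were 43.1, 24.3 and 23.9 CPM and at 72 h 48.2, 38.0 and 32.5. The lowest SE library thus lay above the highest control library. Log2FC ranged from 1.60 ± 0.30 at 12 h (adjusted p = 0.000333) to 2.48 ± 0.31 at 36 h (adjusted p = 5.04e-06), and Il1r1 was called up at all 5 times. Together with Il1rn, Il33 and Nlrp3 it was among 4 of 10 members for which all 15 SE libraries exceeded all 9 controls, which held for 3.03% of all genes tested. Of these members, Il1rn had 0 counts in every control library, so that it could not lie lower.

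Il1rap, the accessory chain (chromosome 16, 26400350-26548880, plus strand), was called up from 24 h on. Its levels at 6 h were 50.3, 38.4 and 37.7 CPM and at 12 h 67.7, 52.9 and 45.5, overlapping with Ctr 12 h (35.1, 33.0 and 48.5 CPM). At 24 h they were 64.3, 66.8 and 84.8 CPM, at 36 h 80.8, 66.5 and 63.7, and at 72 h 55.6, 60.3 and 65.8, all above the 9 controls. Il1rap missed the fold threshold at 6 h (Log2FC 0.56, 95% interval 0.22 to 0.90, adjusted p = 0.00917) and 12 h (0.51, 0.10 to 0.93, adjusted p = 0.0484), and was called up at 24 h (1.34 ± 0.15, adjusted p = 9.98e-07), 36 h (1.03 ± 0.20, adjusted p = 0.000567) and 72 h (1.80 ± 0.22, adjusted p = 3.23e-06). The 6 h value passed it without Ctr 72 h replicate 1 (0.70) or with the label range as a factor (0.79), and the 12 h value without Ctr 12 h replicate 3 (0.71) or with counts thinned to the smallest library (0.71). Il1rap was also the only member that differed between control groups. Ctr 72 h held 24.1, 13.5 and 12.8 CPM, below all libraries of Ctr 12 h and of Ctr 36 h (33.5, 37.8 and 32.0 CPM). The decrease against Ctr 12 h was called (Log2FC -1.17 ± 0.21, adjusted p = 0.0169; background 0.931%), as was that against Ctr 36 h (-0.99 ± 0.21, adjusted p = 0.0202; background 1.96%). Both calls were lost without Ctr 72 h replicate 2 (adjusted p = 0.166 and 0.153). The first was also lost without Ctr 12 h replicate 1 or 3 (0.0529 and 0.0605) and the second without Ctr 36 h replicate 1 or 2 (0.0717 and 0.0855). Of the other comparison, Ctr 36 h against Ctr 12 h, 0 of 10 members were called (0.00% of all genes). The SE effect on Il1rap was larger at 72 h than at 12 h by 1.29 ± 0.29 on the log2 scale (adjusted p = 0.00401), a difference called in every alternative run. Most of this difference lay between the control groups. Mean levels were 38.9 CPM in Ctr 12 h and 16.8 in Ctr 72 h, against 55.4 in SE 12 h and 60.6 in SE 72 h.

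Il18, a ligand that caspase-1 processes (chromosome 9, 50466081-50493633, plus strand), moved the other way. Controls lay at 18.6, 19.3 and 20.0 CPM at 12 h, 19.8, 21.4 and 20.9 at 36 h and 23.6, 16.9 and 15.8 at 72 h. SE libraries held 13.7, 14.8 and 13.8 CPM at 6 h, 8.05, 8.22 and 11.8 at 12 h and 8.28, 8.71 and 8.41 at 24 h. At 36 h the levels were 15.3, 11 and 12.4 CPM, and at 72 h 20.7, 19.2 and 20.9. From 6 to 36 h, every SE library lay below every control library, and at 72 h the groups overlapped. The decrease was called at 12 h (Log2FC -1.06 ± 0.16, adjusted p = 3.70e-05), 24 h (-1.21 ± 0.14, adjusted p = 9.02e-07) and 36 h (-0.68 ± 0.16, adjusted p = 0.00223). At 6 h it passed the p threshold but not the fold threshold (-0.48, 95% interval -0.76 to -0.20, adjusted p = 0.00679), and at 72 h the difference was 0.09 (-0.24 to 0.42, adjusted p = 0.727). The 36 h call fell short of the fold threshold without SE 36 h replicate 2 (-0.59), without replicate 3 (-0.65), without the 6 libraries with ganglion markers (-0.65), with scaling to library size only (-0.56) or with only genes of at least 10 counts in every library (-0.62).

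The SE effect on Il18 differed between times when tested directly. It was higher by 1.15 ± 0.22 on the log2 scale at 72 h than at 12 h (adjusted p = 0.00154), a difference called in every alternative run. Between 72 h and 36 h it differed by 0.77 ± 0.22 (adjusted p = 0.0486), a call lost in most alternatives and, by adjusted p of 0.0618 to 0.125, with any of 10 of the 12 compared libraries left out, SE 36 h replicate 1 and Ctr 72 h replicate 1 being the exceptions. Il18, Il1rap and Pycard differed in this way between 72 h and 12 h (3 of 10 members, where 18.6% of all genes did), 1 between 72 h and 36 h (background 4.81%), and 0 between 36 h and 12 h (background 3.38%). Among SE libraries alone, Il18 was lower at 12 h than at 6 h (-0.60 ± 0.16, adjusted p = 0.0342) and higher at 72 h than at 36 h (0.65 ± 0.16, adjusted p = 0.0116), both short of the threshold of 1 used between SE times. With that threshold, 0 of 10 members were called between consecutive SE times (background 1.34%, 3.18%, 0.529% and 4.13%).

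Il33, the nuclear alarmin (chromosome 19, 29902483-29938933, plus strand), rose at every time. Controls held 28.6 to 46.0 CPM with a median of 39.4. SE libraries held 91.4, 96.5 and 77.5 CPM at 6 h, 125, 57.7 and 121 at 12 h and 131, 114 and 215 at 24 h. At 36 h the levels were 89.3, 74.1 and 110 CPM and at 72 h 72.0, 85.0 and 106. The highest level, at 24 h, was that of replicate 3, which was also the highest library for Il1rn and Nlrp3. Log2FC was 1.24 ± 0.20 at 6 h (adjusted p = 6.83e-05), 2.03 ± 0.19 at 24 h (adjusted p = 6.22e-08) and 1.16 ± 0.27 at 72 h (adjusted p = 0.00282).

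Among the inflammasome genes, Nlrp3, the sensor (chromosome 11, 59432394-59457782, plus strand), was called up at all 5 times. Controls held 0 to 1.69 CPM with a median of 0.946, and both libraries at 0 were Ctr 72 h replicates 2 and 3, the shallowest of the series. At 6 h the levels were 2.80, 3.33 and 5.39 CPM, at 12 h 3.73, 3.31 and 5.58, and at 24 h 7.22, 4.27 and 9.60. They were 6.15, 5.44 and 6.15 CPM at 36 h and 3.90, 7.54 and 7.31 at 72 h. The lowest SE library, at 2.80 CPM, was above the highest control library. Log2FC was 2.18 ± 0.37 at 6 h (adjusted p = 0.000130), 3.02 ± 0.36 at 24 h (adjusted p = 1.37e-06) and 3.50 ± 0.59 at 72 h (adjusted p = 0.000177). With the label range as a factor the 72 h call was lost (2.70, adjusted p = 0.0553).

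Pycard, the adaptor (chromosome 7, 127588558-127593039, minus strand), was highest at 72 h. Controls ranged from 0.341 to 3.38 CPM with a median of 1.82. SE levels were 4.24, 2.45 and 1.91 CPM at 6 h, 2.98, 3.51 and 5.02 at 12 h and 5.10, 2.87 and 5.25 at 24 h. At 36 h they were 7.71, 4.97 and 5.01 CPM and at 72 h 8.34, 9.82 and 17.4. All 36 h and 72 h libraries exceeded all controls, whereas the 6 h libraries overlapped with them. Pycard was called up at all 5 times, with a Log2FC of 0.76 ± 0.29 at 6 h (adjusted p = 0.0427), 1.38 ± 0.35 at 12 h (adjusted p = 0.00438), 1.40 ± 0.28 at 24 h (adjusted p = 0.000479), 1.34 ± 0.34 at 36 h (adjusted p = 0.00528) and 3.04 ± 0.41 at 72 h (adjusted p = 1.20e-05). The 6 h call was lost without Ctr 72 h replicate 2 (0.47, adjusted p = 0.258) and without SE 6 h replicate 1 (0.36, adjusted p = 0.407). It also missed the threshold, at adjusted p of 0.0503 to 0.0676, without SE 6 h replicate 2, Ctr 12 h replicate 1 or 2, or Ctr 36 h replicate 2 or 3. With the label range as a factor Pycard was called at 72 h alone (adjusted p = 0.356, 0.0875, 0.166 and 0.0626 at the earlier times). Likewise, the SE effect was larger at 72 h than at 12 h by 1.66 ± 0.54 (adjusted p = 0.0343), but by 0.70 (adjusted p = 0.440) without Ctr 72 h replicate 2. That call was also lost, at adjusted p of 0.0553 to 0.116, without Ctr 12 h replicate 3, SE 12 h replicate 1 or 2, or SE 72 h replicate 3. It was lost as well with no RUVr factor (adjusted p = 0.240), limma-voom (0.0622), the label range as a factor (0.358), thinned counts (0.111), the compared groups only (0.0639) and without the 6 libraries with ganglion markers (0.276).

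Casp1, the protease (chromosome 9, 5298508-5307290, plus strand), scattered more between libraries. Controls held 2.46, 6.36 and 2.36 CPM at 12 h, 2.23, 1.51 and 2.30 at 36 h and 2.36, 0.171 and 1.88 at 72 h. SE libraries held 8.63, 0.588 and 1.15 CPM at 6 h, 3.78, 2.52 and 1.75 at 12 h and 3.82, 8.19 and 3.15 at 24 h. At 36 h the levels were 7.48, 4.18 and 7.41 CPM and at 72 h 6.75, 7.54 and 5.80, above the controls of the same time. Casp1 was called up at 72 h alone (Log2FC 2.44 ± 0.81, adjusted p = 0.0291), and this was lost without Ctr 72 h replicate 2, which held 1 count (1.65, adjusted p = 0.0524), without SE 72 h replicate 2 (2.36, adjusted p = 0.0583) and without the 6 libraries with ganglion markers (1.40, adjusted p = 0.251). The 24 h and 36 h values, 1.31 (95% interval 0.18 to 2.43, adjusted p = 0.0581) and 1.69 (0.26 to 3.12, adjusted p = 0.0659), lay just outside the threshold; the former was called without Ctr 12 h replicate 2 (adjusted p = 0.0327), and the latter was called without Ctr 72 h replicate 2 (adjusted p = 0.0101) and, among other alternatives, with DESeq2 (adjusted p = 0.0322). At 6 h (0.72, -0.46 to 1.89) and 12 h (-0.39, -1.78 to 1.00) no difference was detectable within these intervals.

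Markers of several cell types also moved. The 10 microglial markers summed to 280 to 358 CPM in controls. Their sum lay at 208 to 245 CPM in the SE 6 h libraries and 238 to 346 in those of 12 h, then at 442 to 617 (24 h), 618 to 711 (36 h) and 1329 to 1911 (72 h). At 6 h, 0 of 10 microglial markers were called up and 5 down, while Il1a, Il1b, Nlrp3 and Pycard were called up. At 72 h, 9 of 10 were up, beside 9 of the 10 members. Infiltrating leukocyte markers, of which 6 of 10 were analysed, summed to 0.189 to 18.8 CPM in controls and to 0.709 to 55.4 after SE. The highest sum of a group lay in a library with over 100 CPM of ganglion markers wherever the group had one. These were SE 6 h replicate 3 (5.90 CPM), SE 12 h replicate 1 (6.31), SE 36 h replicate 3 (11.3), SE 72 h replicate 1 (55.4) and Ctr 72 h replicate 2 (18.8). SE 72 h replicate 2, also with ganglion markers, held 16.9 CPM, and replicate 3, without them, 3.17. The part of other tissue in these sums was not tested. Plac8, Cd3e, Ms4a1 and Ly6c2 were not analysed here. Astrocyte markers summed to 4539 to 5715 CPM in controls and to 4945 to 13380 after SE, highest at 72 h (12000 to 13380). Gfap was called up at all 5 times (Log2FC 4.31 ± 0.26 at 36 h, adjusted p = 4.65e-10), while Slc1a3, Slc1a2, Gja1 and Aldoc, 4 of the 6 markers, were called down at 24 h and 36 h and not called at 72 h. Endothelial markers summed to 174 to 239 CPM in controls and to 285 to 487 after SE, with 4 of 6 called up at 6, 12 and 24 h and 2 at 36 and 72 h. Neuronal markers summed to 6213 to 10940 CPM in controls and to 4224 to 7930 after SE, with 2 of 6 called down at 12 and 24 h and 3 at 36 and 72 h. The oligodendrocyte sum was 1438 to 2796 CPM in controls and 846 to 4787 after SE, with all SE 6 h libraries (3578 to 3762) above the controls. Of 6 oligodendrocyte markers, 3, 0, 3, 0 and 2 were called up from 6 to 72 h and 0, 1, 0, 1 and 0 down. The part of these cell types in the members' levels was not tested. In bulk CA1, fewer cells of a type and less RNA per cell cannot be told apart, and neither can more cells and more RNA per cell.

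**Figure D3:**
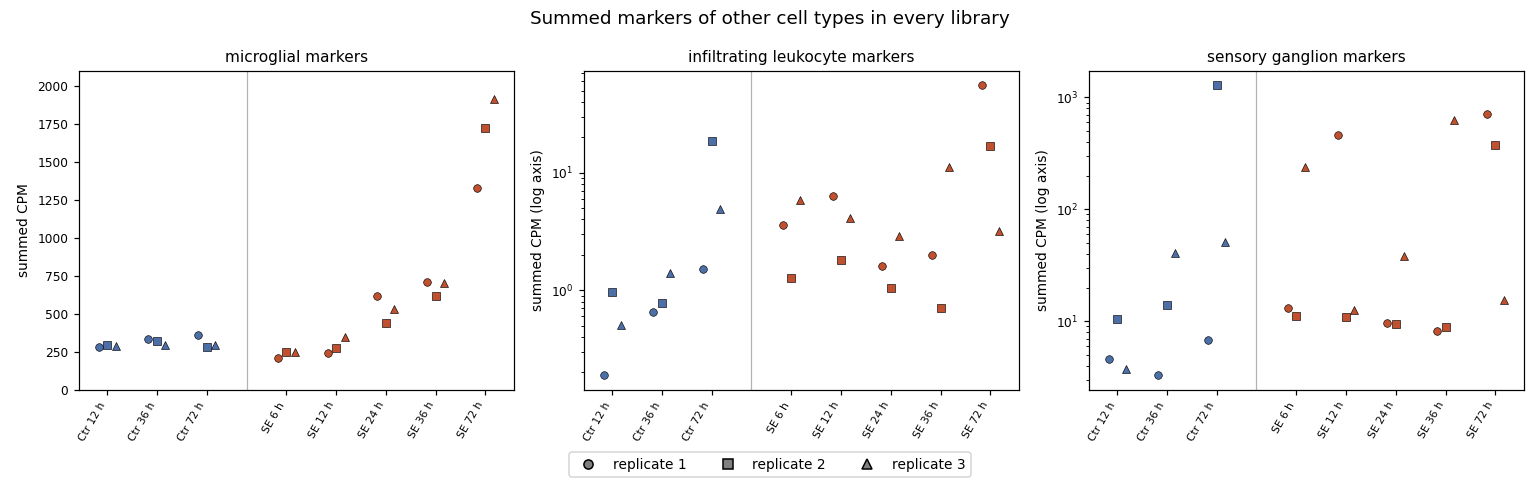
Summed CPM of microglial (linear axis from 0), infiltrating leukocyte and sensory ganglion markers (log axes) in each library, by group (blue, Ctr; red, SE), with marker shape giving the replicate. Microglial markers reach 1329 to 1911 CPM at 72 h, and ganglion markers exceed 100 CPM in 6 libraries, 1 of them a control.

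The other genes of the pathway were read from lists set for this work. Of 6 further receptors and decoys tested, 4, 3, 3, 3 and 3 were called up from 6 to 72 h and 0 were called down, to be read, as the lists that follow, against the 12.7% to 15.8% of all genes called up. Il1r2, the decoy receptor for IL-1, was up from 6 h (Log2FC 2.54 ± 0.54, adjusted p = 0.000939) to 36 h (1.99 ± 0.73, adjusted p = 0.0445). Il1rl1, which encodes the receptor for IL-33, was up at 6 h (2.95 ± 0.69, adjusted p = 0.00215) and 12 h (3.07 ± 0.93, adjusted p = 0.0136). Il18rap, the accessory chain of the IL-18 receptor, was called up at 6, 12, 24 and 72 h (4.14 ± 1.11 at 72 h, adjusted p = 0.00837). Il18bp, which encodes a soluble trap for IL-18, was up at 72 h alone (0.70 ± 0.25, adjusted p = 0.0446). The 5 further ligands of the list (Il1f10, Il36a, Il36b, Il36g and Il36rn) were not analysed here.

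Of 10 receptor adaptors and kinases, 5, 4, 3, 3 and 3 were called up from 6 to 72 h, none of them down, and the rest were not called. Myd88, the common adaptor, was up at every time, from 1.43 ± 0.14 at 6 h (adjusted p = 2.39e-07) to 2.13 ± 0.19 at 36 h (adjusted p = 6.14e-08). Irak3, a kinase-dead member of the family that restrains signalling, was up at each time as well (2.29 ± 0.41 at 12 h, adjusted p = 0.000240). Irak4 was called at all 5 times, with the largest Log2FC at 72 h (1.72 ± 0.30, adjusted p = 0.000278).

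Of 12 further inflammasome sensors and regulators tested, 2, 0, 3, 6 and 7 were called up from 6 to 72 h, and 2, 1, 0, 0 and 0 were called down. The counts called up at 6 h and 12 h lay near or below the share of all genes. Called down were 6.21% of all genes at 6 h and 11.4% at 12 h. The DNA sensor Aim2 was up at 24 h (0.94 ± 0.23, adjusted p = 0.00287), 36 h (1.19 ± 0.26, adjusted p = 0.00164) and 72 h (3.58 ± 0.35, adjusted p = 2.31e-07). Naip2 and Naip5, which recognise bacterial proteins, were called at the same 3 times, with Naip2 at 3.99 ± 0.56 at 72 h (adjusted p = 2.17e-05); the Naip genes are near-identical copies, so that the split of reads among them is uncertain. Nlrp1b was called down at 6 h (-3.41 ± 0.67, adjusted p = 0.000486) and 12 h (-1.83 ± 0.63, adjusted p = 0.0265), and the same caution holds for it and Nlrp1a. Of 6 further caspases and pore formers, 2, 3, 3, 3 and 3 were called up. Casp4, whose product senses cytosolic lipopolysaccharide, and Casp8 were up at every time (3.44 ± 0.54 and 1.36 ± 0.20 at 6 h, adjusted p = 5.35e-05 and 2.98e-05). Gsdmd, the pore former that caspase-1 activates, was up at 24 h (0.74 ± 0.24, adjusted p = 0.0199), 36 h (1.15 ± 0.30, adjusted p = 0.00616) and 72 h (2.09 ± 0.33, adjusted p = 8.02e-05).

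Of 10 genes known to respond to IL-1, 9, 9, 9, 6 and 4 were called up from 6 to 72 h and 0 down. The chemokine gene Ccl2 was called at each time (8.14 ± 0.48 at 24 h, adjusted p = 7.65e-11; 3.53 ± 0.74 at 72 h, adjusted p = 0.00137). Ptgs2, which encodes cyclooxygenase-2, was up from 6 h (2.65 ± 0.47, adjusted p = 0.000172) to 36 h (4.36 ± 0.71, adjusted p = 8.66e-05) and not called at 72 h. Other signals induce these genes too, so that the counts do not measure IL-1 signalling.

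**Figure D4:**
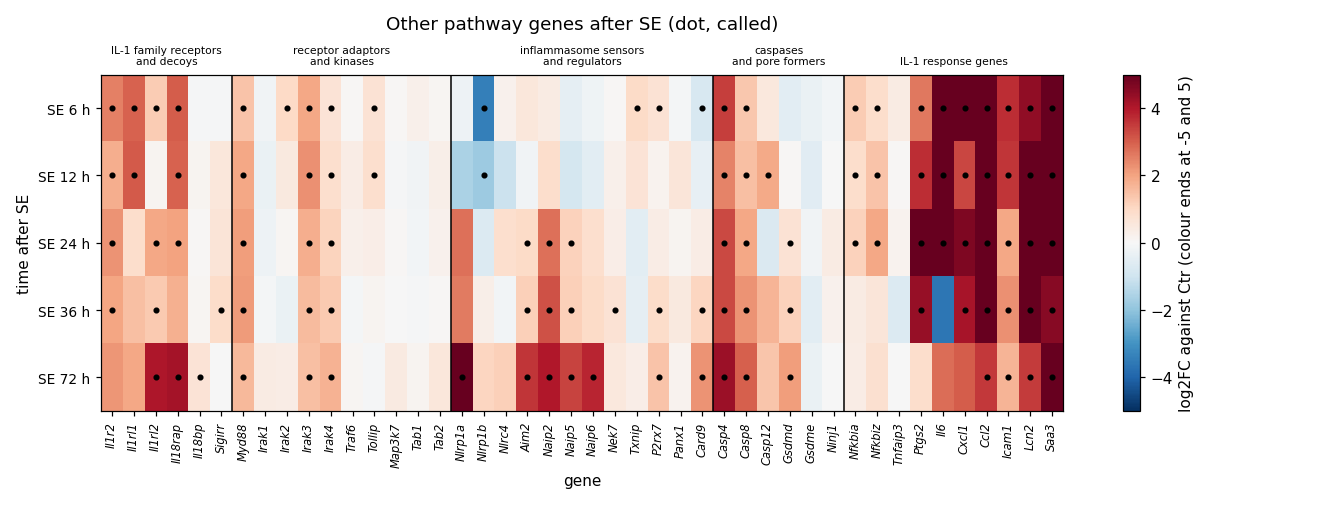
Log2FC against control (colour, ending at -5 and 5) of the other pathway genes tested (horizontal axis, grouped by list) at 5 times after SE (vertical axis); a dot marks a called gene. Among inflammasome sensors and regulators 7 are called up at 72 h and 0 at 12 h, whereas among IL-1 response genes 4 are called at 72 h and 9 at 12 h.

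Across the 24 libraries, the genes whose log2 CPM was most like that of each member were found by Pearson's r among genes whose log2 CPM averaged 1 or more. For Il1b these were Zfp36 (r = 0.870) and Plat, for Il1rn Ccl4 (r = 0.974) and Smim3, for Nlrp3 Lat2 (r = 0.958) and Muc1, for Pycard Irf8 (r = 0.930) and Cyth4, for Il33 Litaf (r = 0.945) and Ptx3, and for Il18 Plpp3 (r = 0.927) and Psd2. They were Ppard (r = 0.876) and Zc3h12a for Il1a, and Tgm1 (r = 0.938) and Tnfrsf1a for Il1r1. Il1rap was nearest to Tmem43 (r = 0.919) and Glis3, and Casp1 to Lrrc75a (r = 0.854) and Cgrrf1. With a prior count of 0.5 in the log2 CPM, 14 of the 20 nearest genes were named again. Between members, r was highest for Il1rap and Nlrp3 (0.897) and for Il1rn and Il33 (0.889). Il18 was negatively correlated with each of the other 9, most with Il1rn (r = -0.784). These values describe libraries that share the split between SE and control as well as depth, and carry no test.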

How the data were processed

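The authors deposited raw counts per gene, made from paired-end poly(A) reads (TruSeq v2, unstranded) with Trim Galore 0.6.6, STAR 2.7.8a, SAMtools 1.10 and HTSeq 0.13.5 on GRCm39. Members were found by GENCODE M39 symbol, and 95 of 18647 rows matched no gene and were kept in the fit. The 10 members and the gene and marker lists were chosen with earlier results of these data known. From 2 marker lists, 1 gene each is not reported here and was left out of the sums. Counts were tested in edgeR 4.0.16 (R 4.3.3) with TMM scaling, filterByExpr, the 8 groups and 1 RUVr factor (the first component of the deviance residuals), by the quasi-likelihood F test with Benjamini-Hochberg adjustment over all genes tested. Standard errors are |Log2FC| divided by the root of F. Genes in the text are the members, each member's 2 nearest genes, and pathway genes that passed both thresholds. Log2 CPM used a prior count of 2. On counts simulated for SE 12 h against Ctr 12 h, 159 of 200 genes changed by 1.5 on the log2 scale were recovered and 10 of the 17004 genes tested were called in error. The changed genes were drawn from those above 1 CPM in Ctr 12 h, so the recovery does not describe Il1a, Il1b or Il1rn, which lay below. No batch and no RNA of other tissue was simulated. Alternatives used DESeq2 1.42.0 and limma 3.58.1, among others. Replicate pairs of a group differed by 4.77 to 65.9 times the chi-square of sampling noise per gene, so that no library was counted as a repeat. Same-numbered libraries of different groups did not deviate together, and no pairing was used. The precision of a value follows its counts, from 2663936 to 30133731 per library.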

Additional observations from a re-analysis of the deposited data

Results flagged for a closer look

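The SE effect of 3 members differed between time points by the test of the difference itself (edgeR quasi-likelihood test of the interaction, adjusted over all genes tested). Over all genes tested, 18.6% differed in this way between 72 h and 12 h and 4.81% between 72 h and 36 h. Il18 differed by 1.15 on the log2 scale between 72 h and 12 h (adjusted p = 0.00154): it was lower than control in 3 of 3 SE libraries at 12 h and within the control range in 3 of 3 at 72 h. Its effect differed by 0.772 between 72 h and 36 h (adjusted p = 0.0486), a call lost in most alternatives and with most of the compared libraries left out singly. Il1rap differed by 1.29 between 72 h and 12 h (adjusted p = 0.00401), with Ctr 72 h at 12.8 to 24.1 CPM and Ctr 12 h at 33.0 to 48.5 CPM. The SE libraries of these times overlapped, at 55.6 to 65.8 CPM in SE 72 h and 45.5 to 67.7 CPM in SE 12 h. Pycard differed by 1.66 between 72 h and 12 h (adjusted p = 0.0343), and by 0.70 (adjusted p = 0.440) without Ctr 72 h replicate 2, which held 0.341 CPM of Pycard and 1283 CPM of sensory ganglion markers. The part of those markers in the difference was not tested.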

How the results depend on the processing

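No member changed direction in a called comparison under any alternative run. The number of members called from 6 to 72 h was 7, 7, 9, 8 and 9. It was 2, 3, 4, 3 and 3 when only genes with at least 10 counts in every library were kept. That filter left only Il1r1, Il1rap, Il18 and Il33 of the members to be tested. Of the 11913 genes it kept, 2190, 3139, 2497, 2492 and 1892 were called at the successive times. It was 4 at 6 h with counts thinned to the smallest library, where not all members passed the filter on low counts and 2843 of all genes tested were called. At 72 h it was 5 both with limma-voom and with the range of label numbers as a factor. Of the 18153 genes tested, 2787 and 1595 were called at 72 h with limma-voom and with the label range, respectively. With each library left out in turn, the ranges were 6 to 8 (6 h), 6 to 7 (12 h), 9 to 10 (24 h), 6 to 8 (36 h) and 7 to 8 (72 h). The counts over all genes with a library left out are not given here. Between SE times the count of 0 became 1 for 12 h against 6 h with no Log2FC threshold, 1 for 36 h against 24 h with DESeq2, without Ctr 72 h replicate 2 and without the 6 libraries with ganglion markers, and 1 for 72 h against 36 h with limma-voom, DESeq2, no Log2FC threshold or without Ctr 72 h replicate 2; leaving out each library gave 0 to 1 for 36 h against 24 h and 0 for the others. The 3 members whose SE effect differed between 72 h and 12 h became 5 with DESeq2, 4 with the replicate block, 2 with 7 alternatives and 2 to 4 when each library was left out. Over all genes tested, 3384 differed in this way in the main fit, 3755 with DESeq2 and 3496 with the replicate block. The 1 member differing between 72 h and 36 h became 0 with 10 of the alternatives (thinned counts, limma-voom, label range, no RUVr factor, DESeq2 size factors, library size only, compared groups only, an absolute Log2FC of at least 1, without Ctr 72 h replicate 2, without the 6 libraries) and 0 to 4 with a library left out. The 1 member called for Ctr 72 h became 0 against both other controls with thinned counts, limma-voom, without Ctr 72 h replicate 2 or without the 6 libraries, 0 against Ctr 36 h with no RUVr factor or an absolute Log2FC of at least 1, and 0 against Ctr 12 h with compared groups only; with a library left out it was 0 to 2. The cause of these changes was not tested. The labels do not pair the libraries (median r = -0.00281 over 84 same-numbered pairs, 19 above 0.1), and the fit with the replicate block added Casp1 at 24 h (1.37, adjusted p = 0.0447) and ended the Il18 difference between 72 h and 36 h (0.77, adjusted p = 0.0559), where Pycard took its place. The range of label numbers as a factor ended the calls of Pycard from 6 to 36 h, of Il1b from 12 to 72 h (adjusted p = 0.0526 at 24 h) and of Il1a, Casp1 and Nlrp3 at 72 h. The limma-voom fit ended those of Pycard at 6 h, of Il1b at 12, 36 and 72 h and of Il1a, Il1rn and Casp1 at 72 h. Over all genes tested, the median Log2FC at 36 h was 0.00326 and became 0.127 with scaling to library size only; that of the difference between 72 h and 12 h was 0.151 and became 0.115 with DESeq2 size factors. For Il1a, Il1b, Il1rn and Nlrp3, depth limits the control level.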
